A study of Mus musculus with 6 samples.

Results

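The hair shaft keratins are the filament proteins of the hair fibre itself. A list of 10 such genes was looked up by gene symbol on an Affymetrix mouse array, and 9 of them (Krt31, Krt32, Krt33a, Krt33b, Krt34, Krt35, Krt36, Krt81 and Krt86) had a probe set, 1 each and none shared with another gene. They are 9 of the 45037 probe sets tested and 9 of 18193 genes with a probe set of their own, and the remaining gene of the list is not analysed here. The RNA came from back skin, taken whole on postnatal day 2.5 from 6 female mice of a single litter on a mixed FVB/N and C57BL/6 background. Of these, 3 were K5cre-caNrf2 mice (genotype tg/tg in the protocol), in which a constitutively active Nrf2 is placed in cells with keratin 5 promoter activity. The other 3 were K5cre-wt mice (tg/wt), the controls, so that K5cre is part of the name of both groups. Each mouse gave 1 array, and an n of 3 counts animals. Groups follow the sample titles, since the labels write tg/g for the caNrf2 genotype and give caNrf2 as the treatment of every sample.

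A hair shaft has a cuticle and a cortex, and often a medulla, all built by cells that leave the hair matrix at the base of the follicle and harden as they move up. Their keratin filaments pair an acidic type I keratin (here Krt31, Krt32, Krt33a, Krt33b, Krt34, Krt35 and Krt36) with a basic type II keratin (here Krt81 and Krt86), and are rich in cysteine that is cross-linked with keratin-associated proteins. In human hair these keratins switch on in sequence: KRT35 begins in the matrix and the lowest cortex, KRT32 marks the cuticle, and the others begin higher in the cortex, KRT34 among the last. By that human order Krt35 is called early here, Krt32 the cuticle keratin, and the 7 others late.

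In caNrf2 skin the log2 intensity of all 9 shaft keratins was below that of control skin, by small amounts, and none passed the test. Log2 fold changes (caNrf2 minus control) ran from -0.27 for Krt31 to -0.06 for Krt86, with a median of -0.19. In a limma fit over all probe sets with Benjamini-Hochberg adjustment, 0 of 9 were called at an adjusted p under 0.05. Over the whole array, 0.633% of probe sets were called lower and 1.04% higher in caNrf2 skin. A log2 fold change below 0 was found for 51.3% of all probe sets, and for 64.4% of the 8571 probe sets whose mean intensity lay within the range of the 9 members, a set defined after the data were seen. The median log2 fold change was -0.0040 over all probe sets and -0.034 over those of like brightness. In RNA of whole skin, fewer shaft cells and less keratin RNA per cell cannot be told apart.

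The genes themselves lie close together. In the RefSeq gene table the 7 type I members are consecutive among the keratin genes of chromosome 11, in the order Krt33a, Krt33b, Krt34, Krt31, Krt32, Krt35 and Krt36, and Krt81 and Krt86 are neighbours on chromosome 15. Promoters of the members were searched for motifs listed before the sequences were seen, and for TTTTATG. Whether a motif goes with the estimates, none of which passed, was not tested. An entry was found for 5 members only, and Krt33a, Krt35, Krt81 and Krt86 had none in the promoter source used. The 250 bases before the start of the 5 members with an entry are shown, and most of them share short motifs at like distances. They are RefSeq promoters of build GRCm38.p6, all on the minus strand, at chr11:100050552-100050801 (Krt31), chr11:100088270-100088519 (Krt32), chr11:100029869-100030118 (Krt33b), chr11:100041555-100041804 (Krt34) and chr11:100105627-100105876 (Krt36). Capitals mark matches on either strand to 3 motifs. These are TATAAA, found where general transcription factors set the start, then CTTTGA, a core recognised by Lef1 and its relatives, and lastly TTTTATG.
Krt31: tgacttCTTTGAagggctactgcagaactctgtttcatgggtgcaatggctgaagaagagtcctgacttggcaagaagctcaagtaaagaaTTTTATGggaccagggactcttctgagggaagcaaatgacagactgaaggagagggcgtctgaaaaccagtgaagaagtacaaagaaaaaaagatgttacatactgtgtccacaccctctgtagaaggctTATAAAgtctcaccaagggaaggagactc
Krt32: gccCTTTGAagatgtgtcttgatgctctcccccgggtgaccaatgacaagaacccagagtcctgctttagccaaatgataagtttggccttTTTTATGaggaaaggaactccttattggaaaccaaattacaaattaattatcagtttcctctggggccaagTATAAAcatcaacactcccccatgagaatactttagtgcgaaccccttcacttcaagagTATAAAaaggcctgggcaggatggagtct
Krt33b: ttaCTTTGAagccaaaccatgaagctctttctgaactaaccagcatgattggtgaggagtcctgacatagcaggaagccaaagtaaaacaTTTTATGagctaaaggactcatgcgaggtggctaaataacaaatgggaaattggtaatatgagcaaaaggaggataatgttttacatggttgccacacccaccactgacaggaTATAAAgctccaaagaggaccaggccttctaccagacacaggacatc
Krt34: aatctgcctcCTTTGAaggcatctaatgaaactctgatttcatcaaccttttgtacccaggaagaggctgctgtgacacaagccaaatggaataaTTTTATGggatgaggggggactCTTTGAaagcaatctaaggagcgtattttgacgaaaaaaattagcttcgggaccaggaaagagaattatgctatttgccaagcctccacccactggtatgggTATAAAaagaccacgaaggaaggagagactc
Krt36: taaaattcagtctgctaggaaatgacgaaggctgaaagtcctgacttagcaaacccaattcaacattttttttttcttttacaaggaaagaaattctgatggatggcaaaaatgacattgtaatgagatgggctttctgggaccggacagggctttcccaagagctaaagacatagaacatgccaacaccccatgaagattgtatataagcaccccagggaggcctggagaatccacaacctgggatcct
Of the 5 promoters, all but that of Krt36 hold each of the 3 motifs. The other 4 belong to consecutive, related genes, so their matches cannot be counted as independent. The TATAAA nearest the start begins 29 bases before it in Krt31 and in Krt32, 31 in Krt34 and 47 in Krt33b. CTTTGA begins 240 to 247 bases before the start in these 4 genes, with another match at 133 in Krt34. TTTTATG, picked out after the sequences were seen, begins 155 to 160 bases before the start in the same 4. Over 300 bases, from 250 before to 50 after the start, TATAAA is found in 13.6%, CTTTGA in 16% and TTTTATG in 4.19% of 32851 promoters in the table. No base in the 5 promoters belongs to matches of 2 of these motifs. TGACNNNGC, a core of the antioxidant response element to which Nrf2 binds, has a match in the 300 bases of Krt31, Krt33b and Krt36 and in 12.4% of all promoters. CTTTGT, which shares its opening letters with CTTTGA, has a match in Krt31 and in 18.7% of all promoters. These matches describe letters and not binding.

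Nfe2l2, the gene of Nrf2, was read first as a check of the labels. Its brighter probe set gave 1136, 1222 and 1242 in caNrf2 skin, against 825, 726 and 774 in control skin (intensity, replicates 1 to 3). It rose by 0.63 ± 0.07 on the log2 scale (SE; limma, adjusted p = 0.00176), and whether the probe set reads the transgene transcript was not tested. A dim second probe set averaged 20.2 ± 1.6 in caNrf2 skin and 18.0 ± 0.98 in control skin (SD, n = 3) and did not pass (limma, adjusted p = 0.315). Markers of whole skin were present at high intensity, with 6 of 6 keratinocyte markers (Krt5, Krt14, Krt1, Krt10, Lor and Flg) at 9643 or more and 4 of 4 fibroblast markers (Col1a1, Col1a2, Col3a1 and Dcn) at 7380 or more on every array. Arrays correlated at 0.9976 to 0.998 within caNrf2, 0.9973 to 0.9977 within control and 0.9949 to 0.9962 between the groups (Pearson, log2 intensity). All member probe sets lay at 391 or more, above the group means of up to 61.6 given by probe sets of Y-chromosome genes in these female mice.

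Krt35, the early keratin, gave 4637, 4538 and 4624 in caNrf2 skin, against 5590, 5715 and 5165 in control skin. The 3 caNrf2 arrays lay close together and all below the 3 control arrays. The log2 fold change was -0.25 ± 0.07 (SE), a difference of -16.1% with a 95% confidence interval from -24.3% to -7.1%, and its adjusted p of 0.101 in limma was the smallest of the 9. The call depended on the settings of the fit. With an intensity trend in the variance, where 1.28% of all probe sets were called lower, Krt35 passed (limma, adjusted p = 0.00985). It also passed with robust variances added (1.35% called lower; limma, adjusted p = 0.00778) and with log2(value + 16) (0.95% called lower; limma, adjusted p = 0.0452).

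Krt32, the keratin of the cuticle, gave 1027, 970 and 969 in caNrf2 skin, against 1202, 1170 and 1125 in control skin. The groups did not overlap here either, and the control arrays were the tightest of any member. The log2 fold change was -0.24 ± 0.06 (SE; limma, adjusted p = 0.113), a difference of -15.2% (95% interval -23.3% to -6.3%). The same 3 settings that called Krt35 called Krt32 as well, at adjusted p = 0.0274, 0.0311 and 0.0495 in limma.

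Among the late keratins of the cortex, Krt31 had the largest estimate. It gave 2276, 2137 and 2171 in caNrf2 skin, against 3009, 2703 and 2296 in control skin. The groups were separated only by the narrow gap between caNrf2 replicate 1 and control replicate 3. Its log2 fold change was -0.27 ± 0.10 (SE; limma, adjusted p = 0.19), and the 95% interval of the difference ran from -28.7% to -4.1%. Krt33b, a close relative in the same cluster, gave 1627, 1551 and 1423 in caNrf2 skin, against 2033, 1873 and 1650 in control skin. It showed the same order, with control replicate 3 just above the highest caNrf2 array, and stood at -0.27 ± 0.09 on the log2 scale (SE; limma, adjusted p = 0.177).

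The other late type I keratins overlapped between the groups. Krt33a gave 5360, 4736 and 4798 in caNrf2 skin, against 6257, 5617 and 5039 in control skin. Krt34, in human hair one of the last cortex keratins to begin, gave 2901, 2715 and 2738 in caNrf2 skin, against 3321, 3155 and 2719 in control skin. In both genes control replicate 3 fell among the caNrf2 arrays, and for Krt34 it matched the lowest of them closely. Krt36 gave 430, 424 and 391 in caNrf2 skin, against 485, 518 and 426 in control skin, with control replicate 3 again inside the caNrf2 range. The log2 fold changes were -0.18 ± 0.09, -0.13 ± 0.08 and -0.19 ± 0.08 (SE; limma, adjusted p = 0.336, 0.431 and 0.275).

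The type II keratins of the set, Krt81 and Krt86, are the basic partners in the cortex. Krt81 gave 1997, 1789 and 1826 in caNrf2 skin, against 2262, 2236 and 1745 in control skin. Krt86 gave 2516, 2350 and 2382 in caNrf2 skin, against 2692, 2583 and 2281 in control skin. In both, control replicate 3 was below all 3 caNrf2 arrays while the other control arrays were above them. Log2 fold changes were -0.15 ± 0.10 and -0.06 ± 0.08 (SE; limma, adjusted p = 0.491 and 0.738), and the 95% intervals reached 6.1% and 8.4% higher. Whether a probe set also detects a related keratin was not tested.

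**Figure D1:**
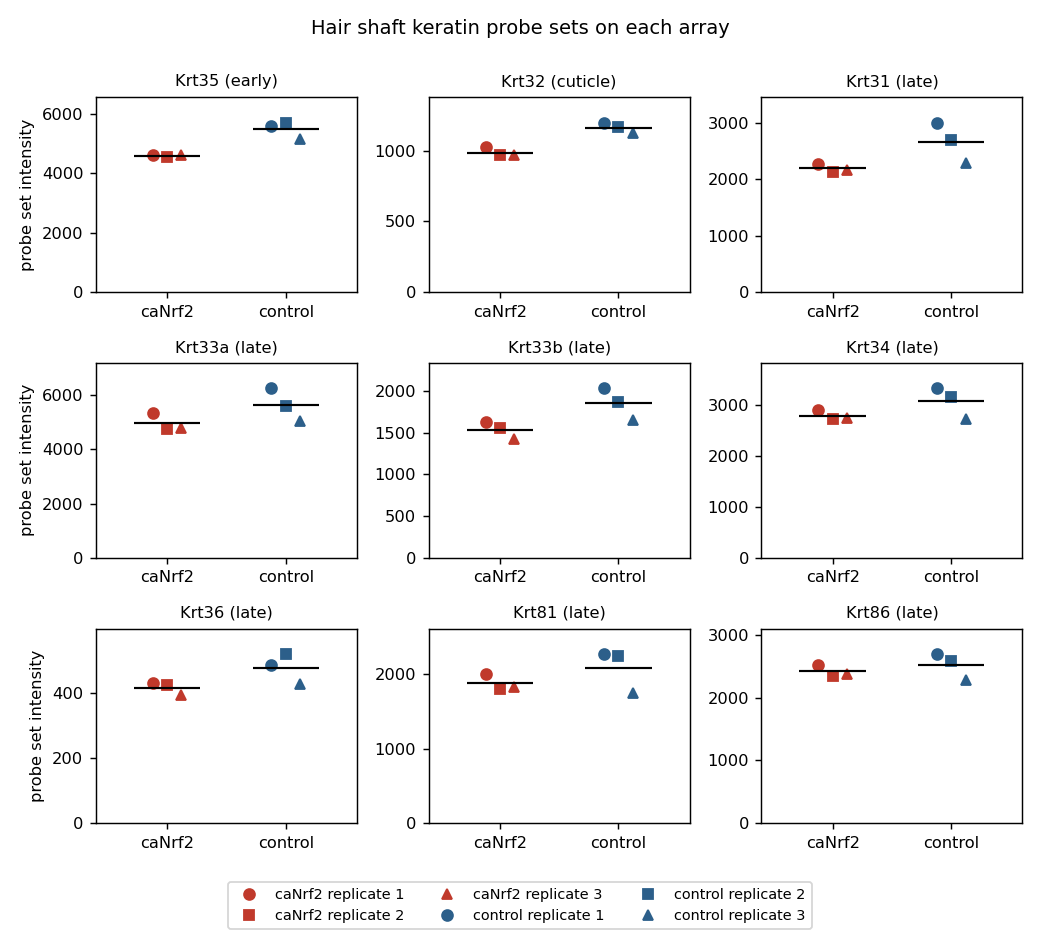
Probe set intensity (linear axis from 0) of the 9 hair shaft keratins on each array, caNrf2 at the left and control at the right of each panel; marker shapes give replicates 1 to 3 and bars the group means. Krt35, Krt32, Krt31 and Krt33b have all caNrf2 arrays below all control arrays, and control replicate 3 is the lowest control array in every panel.

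The groups did not overlap, with caNrf2 lower, for 4 of the 9 members (Krt31, Krt32, Krt33b and Krt35), against 11.7% of all probe sets and 18% of those of like brightness. The 95% intervals of 5 members (these 4 and Krt36) stayed below 0, without adjustment for the number of probe sets. The share of all probe sets with such an interval was not counted, so this count has no background beside it. For all 9 members the interval ended at or before a 1.40-fold reduction, the bound of Krt31.

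**Figure D2:**
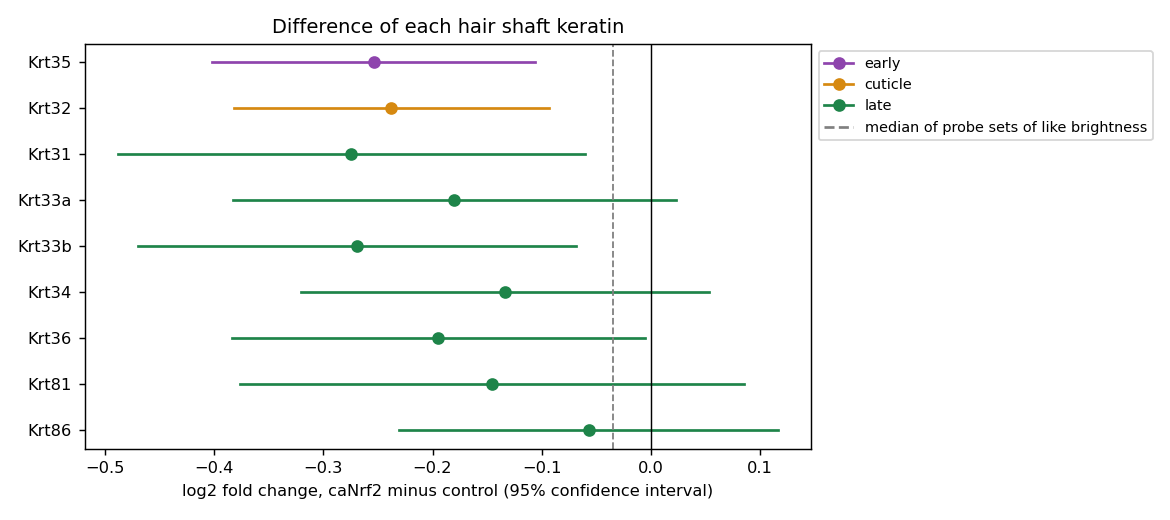
Log2 fold change (caNrf2 minus control) of each hair shaft keratin with its 95% confidence interval from limma, coloured as early, cuticle or late; the dashed line is the median of probe sets of like brightness, -0.034. All 9 points lie below 0 and left of the dashed line, and the intervals of Krt33a, Krt34, Krt81 and Krt86 cross 0.

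Krt35, the only gene of the early class, lay within the range of the late keratins. Whether early and late keratins differ was not tested. Krt35 stood at -0.25 and Krt32 at -0.24, and the 7 late keratins had a median of -0.18 within a range of -0.27 to -0.06 that holds both values. The early value minus the late median was thus -0.07 on the log2 scale. On single arrays, relative to the control mean of each gene, it was -0.17, -0.07 and -0.02 in caNrf2 skin, against -0.10, 0.02 and 0.07 in control skin. The groups overlapped in this difference, which is given as a description without a test. It was also -0.07 with Krt32 counted as early, and -0.10 with Krt31 counted as early. Single arrays moved it more, to -0.14 without control replicate 1, -0.030 without control replicate 3 and -0.039 without caNrf2 replicate 1. The late median was -0.10 when control replicate 1 was left out, and -0.27 when control replicate 3 was.

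The late keratins had a wider spread between control animals than Krt35 and Krt32, given here without a test. The SD of log2 intensity over the control arrays was 0.077 for Krt35 and 0.048 for Krt32, and ran from 0.12 to 0.21 in the 7 late keratins. Over probe sets of like brightness its median was 0.065. In caNrf2 skin the SD was 0.017 for Krt35 and 0.048 for Krt32, and between 0.047 and 0.098 in the late keratins. Control replicate 3 was the lowest control array for 9 of 9 members, against 46% of probe sets of like brightness, and control replicate 1 was the highest for 7 of 9. It lay below the highest caNrf2 array for 5 members and below all caNrf2 arrays for 2 (Krt81 and Krt86). In the other group, caNrf2 replicate 1 was the highest caNrf2 array for 9 of 9 members, against 30.3% of probe sets of like brightness.

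**Figure D3:**
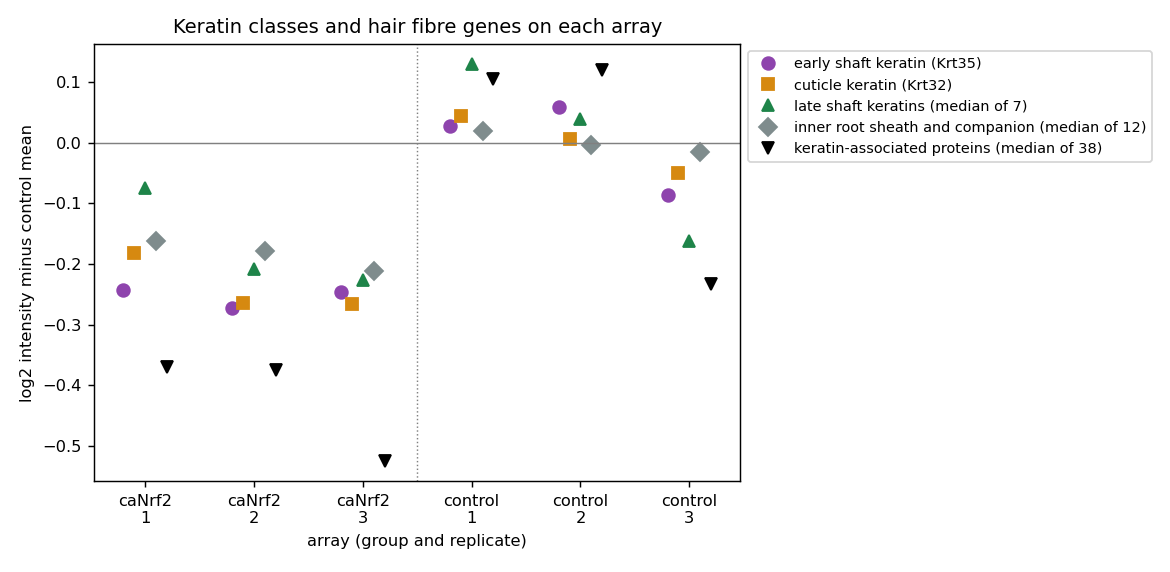
Log2 intensity minus the control mean of each gene, on the 3 caNrf2 arrays (left of the dotted line) and the 3 control arrays, for Krt35, Krt32, the median of 7 late shaft keratins, the median of 12 inner root sheath and companion layer keratins and the median of 38 keratin-associated proteins. The late keratins spread from 0.13 to -0.16 over the control arrays, and the inner root sheath and companion list from 0.02 to -0.01.

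With control replicate 3 left out, the estimates of the 9 members lay between -0.38 (Krt31) and -0.13 (Krt86), and still 0 passed (0.326% of all probe sets were called lower), with adjusted p of at least 0.0802 in limma. With control replicate 1 left out they lay between -0.24 and -0.0074 (Krt86), and again 0 passed (0.175% called lower), with adjusted p of at least 0.295 in limma. All 9 estimates stayed below 0 with any single array left out. Krt35 and Krt32 moved least, from -0.30 to -0.22 and from -0.27 to -0.22 over the 6 omissions, while Krt31 moved from -0.38 to -0.18.

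**Figure D4:**
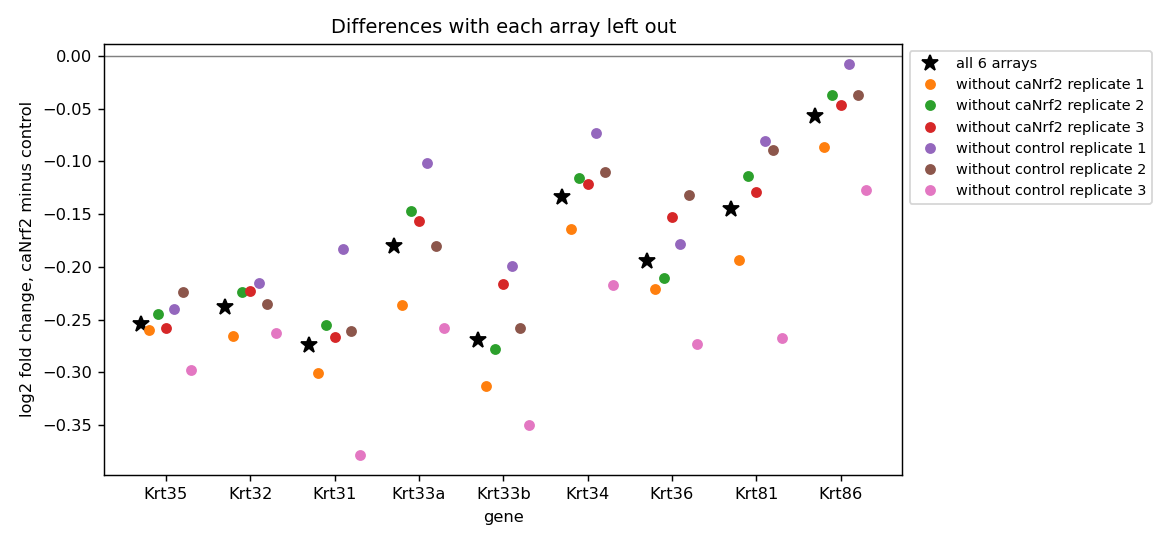
Log2 fold change (caNrf2 minus control) of each hair shaft keratin with all 6 arrays (stars) and with each array left out in turn (circles). Every value lies below 0; the values without control replicate 3 are the lowest for all members except Krt32, and Krt35 and Krt32 vary least.

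Other keratins of the shaft and the proteins they work with gave a mixed picture. Of 4 measured further shaft keratins (of 7 listed), 0 passed, while Krt83 passed as lower without control replicate 3 and Krt82 with an intensity trend, also with robust variances. The cuticle keratin Krt82 gave 469, 382 and 416 in caNrf2 skin, against 563, 556 and 484 in control skin, which is -0.34 ± 0.09 on the log2 scale (SE; limma, adjusted p = 0.113). Krt83, of the cortex, stood at -0.35 ± 0.11 (limma, adjusted p = 0.168), and Krt84 and Krt88 at 0.12 each with intensities of at most 109. Among 12 measured shaft partner proteins 1 rose, 1 fell and 10 did not pass, with a median of -0.038. Dsc2, a desmosomal cadherin, fell by 0.67 on the log2 scale (SE 0.07; limma, adjusted p = 0.00095), although its dimmer probe set gave -0.18. Tgm3, a transglutaminase of hair and epidermis, rose by 0.42 ± 0.07 (SE; limma, adjusted p = 0.0217). Its call was lost with any array but control replicate 1 left out, at adjusted p up to 0.0814, and with the replicate number as a block. Vsig8, a membrane protein of the shaft, stood at -0.34, the calcium-binding S100a3 of the cuticle at -0.29 and the arginine deiminase Padi3 at -0.25 (limma, adjusted p = 0.0993, 0.132 and 0.122). Without control replicate 3 the partner proteins called lower were Dsc2, S100a3 and Vsig8, and with an intensity trend Padi3 joined these 3.

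Among regulators of shaft differentiation, each read by its brightest probe set, log2 fold changes ran from -0.28 (Shh) to 0.0049 (Bmp2). The dimmer Foxn1 probe set, outside this range, gave -0.35 (limma, adjusted p = 0.058). Of 15 transcription factors and signals measured, 0 passed, 14 had a log2 fold change below 0 (51.3% of all probe sets did) and the median was -0.18. The groups did not overlap, with caNrf2 lower, for 8 of the 15, against 11.7% of all probe sets. Shh, the hedgehog ligand of the hair matrix, stood at -0.28 ± 0.06, the homeobox factor Msx2 at -0.24 ± 0.08, Gata3, a factor of the inner root sheath, at -0.21 ± 0.07 and Lef1, a nuclear partner of beta-catenin, at -0.22 ± 0.08 (SE; limma, adjusted p = 0.0738, 0.178, 0.18 and 0.187). Shh was the 1 gene of the 15 called lower with an intensity trend. Of 11 proliferation genes 0 passed and 9 were below 0, with a median of -0.044. Their groups did not overlap, with caNrf2 lower, for 3 of the 11. Top2a had the lowest value of this list, at -0.24 (limma, adjusted p = 0.163).

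A mixed list that holds the keratins of the neighbouring follicle layers had a like median. In the list of inner root sheath and companion layer keratins, which also holds the stress keratins Krt16, Krt6a and Krt17, 2 of 12 fell, 1 rose and 9 did not pass, with a median of -0.19. Krt16, Krt6a (0.13) and Krt17 (0.05) stood above 0 and the others below, from -0.53 (Krt26) to -0.11 (Krt25). The median of the list without the stress keratins is not given. With an intensity trend 7 of the 12 were called lower, as were 1.28% of all probe sets. Without caNrf2 replicate 3 it was 0 of the 12, and 86 of all 45037 probe sets. Krt26 of the inner root sheath gave 1941, 1606 and 1715 in caNrf2 skin, against 2562, 2474 and 2544 in control skin, and fell by 0.53 on the log2 scale (SE 0.08; limma, adjusted p = 0.00903). Krt75 of the companion layer fell by 0.37 (SE 0.06; limma, adjusted p = 0.0169). The Krt26 call was lost without caNrf2 replicate 3 (limma, adjusted p = 0.0501), and that of Krt75 when replicate 1 or replicate 3 of either group was left out, with adjusted p as high as 0.0847. Krt16, a keratin of activated epidermis, rose by 1.64 ± 0.10 (SE; limma, adjusted p = 2.09e-05). The median SD over control arrays was 0.032 in this list. On single arrays its median relative to the control mean was -0.16, -0.18 and -0.21 in caNrf2 skin, against 0.02, -0.003 and -0.01 in control skin, so that control replicate 3 did not stand apart here.

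Keratin-associated proteins, which cross-link the shaft keratins, were lower in caNrf2 skin in part. Of 38 measured, 17 fell, with log2 fold changes from -2.62 (Krtap6-3) to -0.43 (Krtap4-1), 1 rose and 20 did not pass, with a median of -0.42. The gene that rose, Krtap31-1, averaged 46.0 ± 9.5 in caNrf2 skin and 21.1 ± 1.4 in control skin (intensity, SD, n = 3), values within the range of the Y-chromosome probe sets. Control replicate 3 was the lowest control array for 35 of the 38, as it was for all the shaft keratins, and the list's median there was -0.23 from the control mean, against 0.11 and 0.12 on control replicates 1 and 2. Without control replicate 3, 25 of the 38 were called lower, as were 0.326% of all probe sets. With any other array left out it was 12 to 14 of the 38, and 79 to 270 of all 45037 probe sets.

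Some cell type markers lay on the same side as the shaft keratins, and their part in the result was not tested. Of 5 melanocyte markers (Tyr, Dct, Tyrp1, Pmel and Mlana) 0 passed and 5 were below 0, as were 51.3% of all probe sets. Their median was -0.20, with a summed intensity of 9254 to 10172 in caNrf2 and 10777 to 11484 in control skin. Mlana was called lower with array weights, without control replicate 3 and under an intensity trend, and both Mlana and Dct with a trend and robust variances. The sum of 4 inner root sheath markers (Krt71, Krt25, Krt27 and Tchh) ranged from 39913 to 41952 in caNrf2 skin, against 43551 to 44651 in control skin, with 0 of 4 passing. Tchh went the other way, with a log2 fold change of 0.095. Krt71, Krt25 and Krt27 are also in the list of inner root sheath keratins above, so this sum is not separate from it. Krt71 and Krt27 were called lower with an intensity trend, also with robust variances, and Krt27 with log2(value + 16). The sum of 6 interfollicular keratinocyte markers ranged from 91915 to 94566 in caNrf2 skin, against 89281 to 90636 in control skin, with 0 of 6 passing and a median of 0.042. Of 5 dermal papilla, 4 fibroblast, 2 adipocyte, 4 skeletal muscle, 4 leukocyte and 3 endothelial markers none passed in limma. List medians ran from -0.11 for muscle to 0.035 for endothelium. Below 0 were 4 of 5 dermal papilla, 4 of 4 fibroblast and 4 of 4 muscle markers. The counts were 1 of 2 for adipocytes, 2 of 4 for leukocytes and 0 of 3 for endothelium. The leukocyte marker Cd207 was dim, averaging 70.8 in caNrf2 and 54.9 in control skin, near the level of the Y-chromosome probe sets.

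The genes most like the shaft keratins over the 6 arrays were ranked by the root mean square difference between a gene's centred log2 values and the mean centred values of the 9 members. Among 11145 other genes with a mean intensity of at least 100, the 5 closest were Lysmd1 (0.024), Slc7a8, an amino acid transporter (0.025), Ctns, the lysosomal cystine transporter (0.025), Gprc5d, an orphan receptor found in hair follicles (0.028), and Foxn1, the transcription factor missing in nude mice (0.029). The members themselves lay between 0.032 (Krt34) and 0.069 (Krt86) from their mean. Gprc5d gave 1237, 1115 and 1140 in caNrf2 skin, against 1391, 1395 and 1163 in control skin. Foxn1 gave 264, 261 and 246 in caNrf2 skin, against 309, 307 and 262 in control skin. Both show control replicate 3 beside the caNrf2 arrays, as most late shaft keratins do, a pattern that the ranking selected for. The second Foxn1 probe set was lower on the log2 scale by more, at -0.35 against -0.18, and neither passed.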

How the data were processed

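RNA from whole back skin of 6 mice was hybridised to Affymetrix arrays after labelling of 2 ug of total RNA, per the labels' protocols. The deposited intensities were made by the authors with RMA, per the submitters' processing notes, and are on a linear scale. The sources used here do not give its version or later steps. Quantile normalization, a part of RMA, hides a shift of most genes in 1 direction. The upper quartile was 325 to 328 on caNrf2 and 334 to 341 on control arrays. The number of arrays limits the precision.

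Of 45101 probe sets 64 were controls and were left out. Log2 values entered a fit with limma 3.58.1 (R 4.3.3; lmFit and eBayes, no trend, group as the only term), two-sided, with Benjamini-Hochberg adjustment over 45037 probe sets and calls at an adjusted p under 0.05. No dim probe sets were removed. In lists, the probe set with the highest mean stood for a gene. The fit was tested on simulated data. Members, classes and lists were chosen with earlier results of these data known. Named genes are the members, Nfe2l2, genes of the lists past the test or with the smallest p in their list, and the 5 most alike. Keratin-associated proteins are given as counts. Alternatives left out each array and changed the variance model, weights, pseudocount, normalization, filter, unit of the fit and block. Arrays of the 2 groups share replicate numbers, but deviations from the group means of same-numbered arrays correlated at 0.041, 0.16 and 0.083, and no label says that a number marks a pair, so the fit has no block.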

Additional observations from a re-analysis of the deposited data

How the results depend on the processing

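All 9 shaft keratins kept a log2 fold change below 0 in each of the 14 alternative fits. Fits that changed only the variance model, filter, unit of the fit or block left these values unchanged by construction. The count of members called lower was 2 (Krt32 and Krt35) with an intensity trend, with a trend and robust variances, and with log2(value + 16), and 0 in the other 11. No member was called higher in any. With 1 probe set per gene the smallest adjusted p of a member was 0.0549, and without probe sets of mean under 50 it was 0.0534 (limma, Krt35 in both).

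Over all probe sets 285 were lower and 470 higher. The lower count was 577 with an intensity trend, 610 with a trend and robust variances, 428 with log2(value + 16), 453 without probe sets of mean under 50 and 177 with the replicate block, which gave 0 members. With single arrays left out it ran from 79 (without control replicate 1) to 270 (without control replicate 2), and the higher count from 280 (without caNrf2 replicate 3) to 354. With the block, no member call changed, and Tgm3 lost its call (adjusted p = 0.0656). Fits that changed only the variance model, filter, unit of the fit or block left the class medians and the early minus late difference unchanged by construction. In the others they moved by less than the SD between arrays. Leaving out 1 of 3 arrays cannot move the estimate of a single gene by that much, so this says little about stability. With single arrays left out the difference ran from -0.14 to -0.030 and the late median from -0.27 to -0.10. The causes of these moves were not tested. Signal over background did not limit the members.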
